A study of Mus musculus with 4 samples.

Results

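Microglia, the resident macrophages of the brain, were followed here through 9 genes, C1qa, C1qb, C1qc, Cx3cr1, P2ry12, Tmem119, Csf1r, Ctss and Tyrobp. The genes were taken by symbol from a list, and all 9 were found among the 32285 genes counted in every section. Microglia survey the tissue with motile processes, clear debris and take part in the removal of synapses, and they depend on signals from neurons and other glia for survival and positioning. Complement component C1q, which in the brain is made largely by these cells, binds to cell debris and synapses and starts the classical complement cascade, and the surface receptors among the 9 genes read chemokine, nucleotide and growth factor signals. In white matter these cells also take up myelin debris, which passes through the lysosome.

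The study trained mice in active place avoidance, a task in which a rotating arena carries the animal toward a fixed shock zone that it learns to avoid, and asked how gene expression in the hippocampus differs while the memory is held. All 4 mice were adult males of 3 to 4 months on a C57BL/6 background with the genotype ArcCreERT2::eYFPflx, in which the promoter of the activity-dependent gene Arc drives an inducible Cre that switches on eYFP, so that the tag marks neurons and not microglia. Under isoflurane every mouse received 4-hydroxytamoxifen before a retention test, 2 mice had been trained with shock and 2 untrained controls had the same sessions without it, and the brains were frozen 3 days after the test. One coronal section per mouse through the dorsal hippocampus was placed on a Visium array, on which each capture spot covers a small patch of tissue with several cells and its transcripts are counted as unique molecular identifiers (UMIs).

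The sections differed in depth. Trained 1 held 7119995 UMIs over 2865 tissue spots, trained 2 held 10330015 over 3055, untrained 1 held 3560294 over 2359 and untrained 2 held 6581748 over 2661. The median spot held 1936, 2493, 1048 and 1851 UMIs in the same order. Trained 2 stood apart from the other sections, with 6.83% of its UMIs from mitochondrially encoded genes against 12.2%, 12.1% and 11.6% in trained 1, untrained 1 and untrained 2. The choroid plexus gene Ttr was at 507 CPM (UMIs of a gene per 1000000 UMIs of the section or region) in trained 2 and at 5444, 2407 and 5216 in the others. Oligodendrocyte markers summed to 7167 CPM in trained 2 and to 4281, 4745 and 4794 in the others, so values without trained 2 are given where the direction of a result rests on it. Because each section came from 1 mouse, the section was the replicate and spots were not. With 2 sections against 2, an exact permutation test cannot give a p below 0.333.

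Together the 9 genes gave 11784 UMIs. Their summed level was 378 CPM in trained 1, 461 in trained 2, 424 in untrained 1 and 429 in untrained 2. The trained sections were the lowest and the highest of the 4, so the groups overlapped, and the trained mean was 0.983 times the untrained mean (419 ± 58.9 against 427 ± 3.39, SD, n = 2 each, two-sided exact permutation p = 1). Without trained 1 the ratio was 1.08, and without trained 2 it was 0.885. The overlap rested on the genes in the total. With mitochondrially encoded genes, Bc1, Ttr and Gm42418 left out, the levels were 445 CPM in trained 1 and 504 in trained 2 against 512 in untrained 1 and 508 in untrained 2, so both trained sections lay below both untrained ones, at a ratio of 0.931, though trained 2 and untrained 2 differed by less than the untrained sections did. All values are UMIs at the 3′ end of transcripts with no scale for length, so levels are set side by side between sections and regions for 1 gene and not between genes. In a spot, fewer microglia and less RNA per cell cannot be told apart.

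C1qa, C1qb and C1qc encode the 3 chains that assemble into C1q. C1qa was at 47.1 CPM in trained 1, 66.7 in trained 2, 56.7 in untrained 1 and 64.0 in untrained 2. C1qb was at 58.4, 75.5, 68.8 and 65.0 CPM in the same order. In both genes trained 1 was the lowest section and trained 2 the highest, and the groups overlapped. C1qc was at 49.4 and 62.1 CPM in the trained sections and at 63.8 and 65.5 in the untrained, so both trained sections lay below both untrained sections, and groups were apart in 41% of all 13810 genes tested. The log2 fold change of trained over untrained was -0.17 ± 0.15 (SE) for C1qa, -0.07 ± 0.13 for C1qb and -0.29 ± 0.12 for C1qc. C1qc gave the smallest p of the 9 genes (edgeR quasi-likelihood test, unadjusted p = 0.0397, adjusted p = 0.603). For C1qb the sign rested on the scaling, since the value was 0.01 when the fit used total UMIs alone without the TMM (trimmed mean of M values) normalization factors.

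Of the receptors, Cx3cr1 binds the neuronal chemokine fractalkine, P2ry12 senses nucleotides released by active or damaged cells, and Csf1r carries the survival signal of CSF1 and IL-34. Cx3cr1 was at 16.0 and 16.1 CPM in the trained sections and at 18.3 and 16.3 in the untrained. The groups did not overlap, yet trained 2 and untrained 2 differed by less than the gap between the untrained sections. P2ry12 was nearly level at 30.6 and 30.8 CPM in trained and 31.5 and 28.9 in untrained sections, and Csf1r was at 52.5 and 54.3 in trained and 59.0 and 47.3 in untrained sections. For both genes the trained sections lay between the untrained ones. The log2 fold changes were -0.17 ± 0.19 (SE) for Cx3cr1, -0.05 ± 0.14 for P2ry12 and -0.06 ± 0.14 for Csf1r, with edgeR adjusted p of 0.841, 0.949 and 0.938. Without TMM factors the values of P2ry12 and Csf1r turned to 0.03 and 0.02.

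Tmem119, a membrane protein that is used to tell microglia from other macrophages, was at 13.1 CPM in trained 1 and 21.0 in trained 2, against 19.7 and 22.2 in untrained 1 and 2. Only trained 1 was below the others, and the log2 fold change of -0.37 ± 0.22 (SE) was the lowest of the 9 genes but was not called (edgeR adjusted p = 0.688). Tyrobp, the signalling adaptor of Trem2 and other receptors, was at 38.9 and 53.2 CPM in trained and 34.3 and 45.3 in untrained sections. It alone had a log2 fold change above 0, at 0.12 ± 0.17 (SE), and that value turned to -0.08 without trained 2 and to -0.05 without untrained 1. Ctss, a lysosomal cysteine protease that microglia also secrete, was at 71.6, 81.2, 72.2 and 74.6 CPM in trained 1, trained 2, untrained 1 and untrained 2. Its log2 fold change was -0.02 ± 0.11 (SE), and 0.06 without TMM factors.

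**Figure D1:**
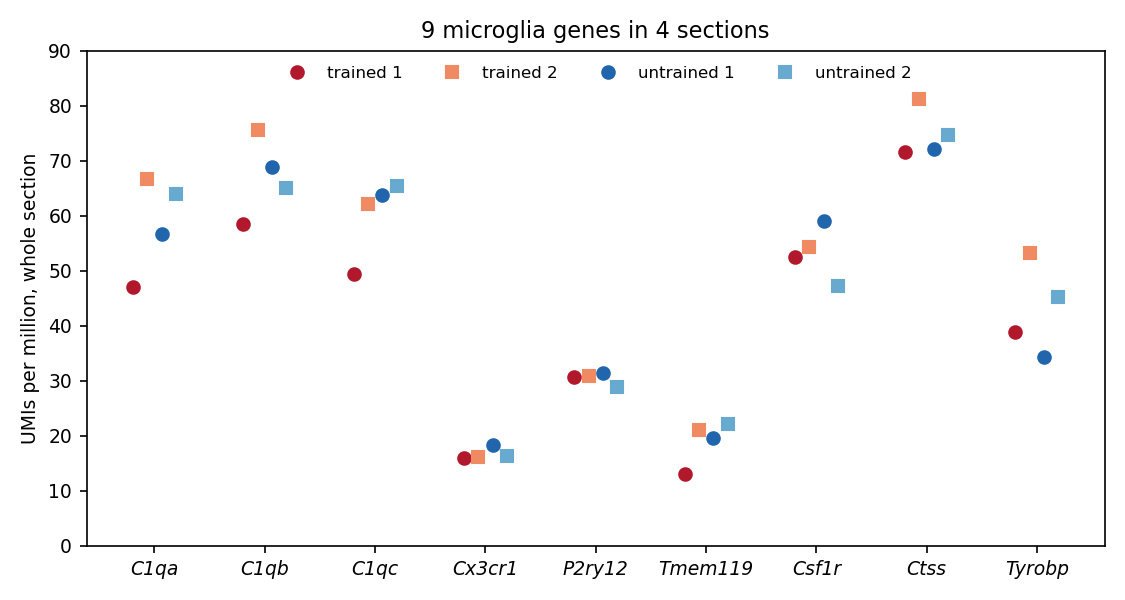
CPM of each of the 9 genes over the whole section, with a point for each trained (red and orange) and untrained (dark and light blue) section. The trained and untrained points overlap for every gene except C1qc and Cx3cr1, 2 of 9 against 41% of all 13810 genes tested, and for Cx3cr1 trained 2 and untrained 2 lie at 16.1 and 16.3.

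Trained against untrained over whole sections, 0 of the 9 genes were called at an adjusted p under 0.05 by edgeR, against 0.0145% of the 13810 genes tested, and 1 of the 9 (C1qc) had an unadjusted p under 0.05. DESeq2 called 0 of the 9, with 0 at an unadjusted p under 0.05. The members lay on both sides of 0, with 8 log2 fold changes below it and 1 above (without TMM factors C1qb, P2ry12, Csf1r and Ctss were above it too), and their median was -0.07 against 0.01 over all genes tested. The 2 genes that were called, both lower in trained sections, were 2900052N01Rik and Phyhip, and DESeq2 called 20 genes. Unadjusted p fell under 0.05 for 1099 genes with edgeR and 476 with DESeq2. Sections decided the count over all genes, which was 848 without trained 1, 40 without trained 2, 2 without untrained 1 and 8 without untrained 2, while 0 of the 9 were called in each of these fits.

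The number of spots that caught a transcript followed the depth of the section. At least 1 UMI of any of the 9 genes was found in 49.7% of spots in trained 1 (95% exact binomial interval 47.8 to 51.5%), 60.9% in trained 2 (59.2 to 62.7%), 39.6% in untrained 1 (37.6 to 41.6%) and 52.3% in untrained 2 (50.4 to 54.3%). The order of these shares was that of the median UMIs per spot except that untrained 2 lay above trained 1. With at least 2 UMIs the shares were 23.6%, 35.5%, 14.5% and 25.8%. When every spot was thinned to 459 UMIs, the 10th percentile of spot totals, the shares were 16.3%, 18.5%, 18.8% and 18.4%, with 220, 202, 470 and 195 shallower spots left out. The trained mean was 9.34 percentage points above the untrained mean before thinning and -1.18 points from it after, and the groups overlapped in both (exact permutation p = 0.667 each). Single genes ranged from 3.85% of spots for Cx3cr1 to 15.4% for Ctss before thinning, as means of 4 sections. Every region holds microglia, so no class of spots served as a blank for these genes, and intervals cover counting error only.

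In thinned spots the 9 genes seldom met. A single one of them was seen in 14.9%, 16.3%, 16.7% and 16.0% of thinned spots in trained 1, trained 2, untrained 1 and untrained 2, and exactly 2 of them in 1.32%, 1.93%, 1.85% and 2.11%. Of the C1q chains, C1qb was found in 0 of 44, 7 of 103, 5 of 47 and 4 of 77 thinned spots that held C1qa. These are 0%, 6.80%, 10.6% and 5.19%, against 2.58%, 3.82%, 3.15% and 3.43% of spots without C1qa, higher beside C1qa in 3 of 4 sections. C1qc was seen in 0%, 5.83%, 2.13% and 3.90% of spots with C1qa against 2.54%, 2.36%, 2.99% and 2.93% of those without it. With C1qb it was seen in 1.49%, 3.57%, 11.1% and 2.33%, against 2.52%, 2.44%, 2.68% and 2.98%. Both of these pairs were higher in 2 of 4 sections, so the chains showed no common direction. Such counts describe capture at this depth and not how many cells express the genes.

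Spots were then assigned to 15 regions by marker lists that hold none of the 9 genes, and each region was named by the list that led it. The hippocampal regions were the CA1 and CA3 pyramidal layers, the dentate gyrus (DG) granule layer and a neuropil region led by dendritic transcripts such as Ddn and Camk2a. One further region was led by medium spiny neuron genes such as Ppp1r1b and Drd1. White matter spots, led by myelin genes such as Mbp, numbered 182, 258, 154 and 261 in trained 1, trained 2, untrained 1 and untrained 2.

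Relative to all transcripts, the 9 genes were more abundant in white matter than in the rest of the section. Their summed level there was 639 CPM in trained 1, 909 in trained 2, 784 in untrained 1 and 873 in untrained 2. In the rest of the section it was 368, 425, 414 and 408 in the same order. White matter was higher in 4 of 4 sections, by 1.97-fold on average (geometric mean, exact sign-flip permutation p = 0.125, the smallest that 4 sections allow). The conditions overlapped in both areas. White matter spots held fewer UMIs, with a median of 1048, 2236, 481 and 780 UMIs against 2008, 2519, 1103 and 1998 in the other spots. Counted per spot in place of CPM, a comparison chosen after seeing the data, the members were at 0.896, 2.73, 0.50 and 1.0 UMIs in white matter and 0.941, 1.45, 0.650 and 1.07 elsewhere. By that measure white matter was higher in 1 of 4 sections (trained 2), the mean ratio was 1.07 and the exact permutation p was 1. The ratio was 1.88 in trained 2, where white matter spots came closest in depth to the others, and the mean without trained 2 was 0.882. The ratio of CPM was 1.92 without trained 2. The part of spot depth in the white matter level was not tested.

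Tested gene by gene, 8 of the 9 members were called higher in white matter than in the mean of the other 14 regions, against 15.1% of the 8200 genes tested (edgeR, section as a block, adjusted p under 0.05). Ctss led, at 149, 187, 224 and 181 CPM in white matter of trained 1, trained 2, untrained 1 and untrained 2, with a log2 fold change of 1.46 ± 0.14 (SE, edgeR adjusted p = 1.29e-16). Tyrobp followed at 90.1, 123, 81.5 and 76.9 CPM and a log2 fold change of 1.24 ± 0.18. All 4 sections were above the mean level of every other region for Ctss, and for Tyrobp the lowest section was above the mean of every other region.

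The C1q chains were higher by like amounts, with log2 fold changes of 1.05 ± 0.16 (SE) for C1qa, 1.11 ± 0.16 for C1qb and 0.97 ± 0.17 for C1qc. In white matter C1qa was at 97.9, 114, 91.7 and 174 CPM in trained 1, trained 2, untrained 1 and untrained 2, C1qb at 94.0, 156, 143 and 137, and C1qc at 66.6, 124, 102 and 120. For each chain every section was above that section's whole-section level. Among the other members, Cx3cr1 had a log2 fold change of 1.05 ± 0.30, Tmem119 of 0.91 ± 0.28 and Csf1r of 0.75 ± 0.20, with edgeR adjusted p of 0.00483, 0.00845 and 0.00255. Cx3cr1 rested on 45 UMIs in white matter and Tmem119 on 54. Of the 8, only Tmem119 lost its call in an alternative that tested it, at an adjusted p of 0.0849 without untrained 2, and Cx3cr1 and Tmem119 had too few UMIs to be tested without trained 2.

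Of the 9 members only P2ry12 was not called higher, and its log2 fold change was not tested against the others. It was at 31.3, 36.1, 20.4 and 33.4 CPM in white matter of trained 1, trained 2, untrained 1 and untrained 2, against 30.6, 30.8, 31.5 and 28.9 over whole sections. It was lower in white matter in untrained 1 and higher in the other sections, and its log2 fold change was 0.19 ± 0.25 (SE, edgeR adjusted p = 0.672). Of all member UMIs in white matter, P2ry12 made up 4.91%, 3.98%, 2.60% and 3.83% in the same order, against 8.31%, 7.15%, 7.68% and 7.03% elsewhere. Csf1r also took a smaller share there (10.4%, 9.80%, 9.09% and 9.20% against 14.1%, 12.1%, 14.2% and 11.2%), while Ctss took a larger one (23.3%, 20.6%, 28.6% and 20.7% against 18.7%, 17.1%, 16.4% and 17.1%). Each of these 3 differences had the same direction in 4 of 4 sections, with an exact permutation p of 0.125, the smallest possible, and 0.375 after Benjamini-Hochberg adjustment over the 9 genes. In untrained 1 the white matter share of P2ry12 rested on 2 UMIs.

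**Figure D2:**
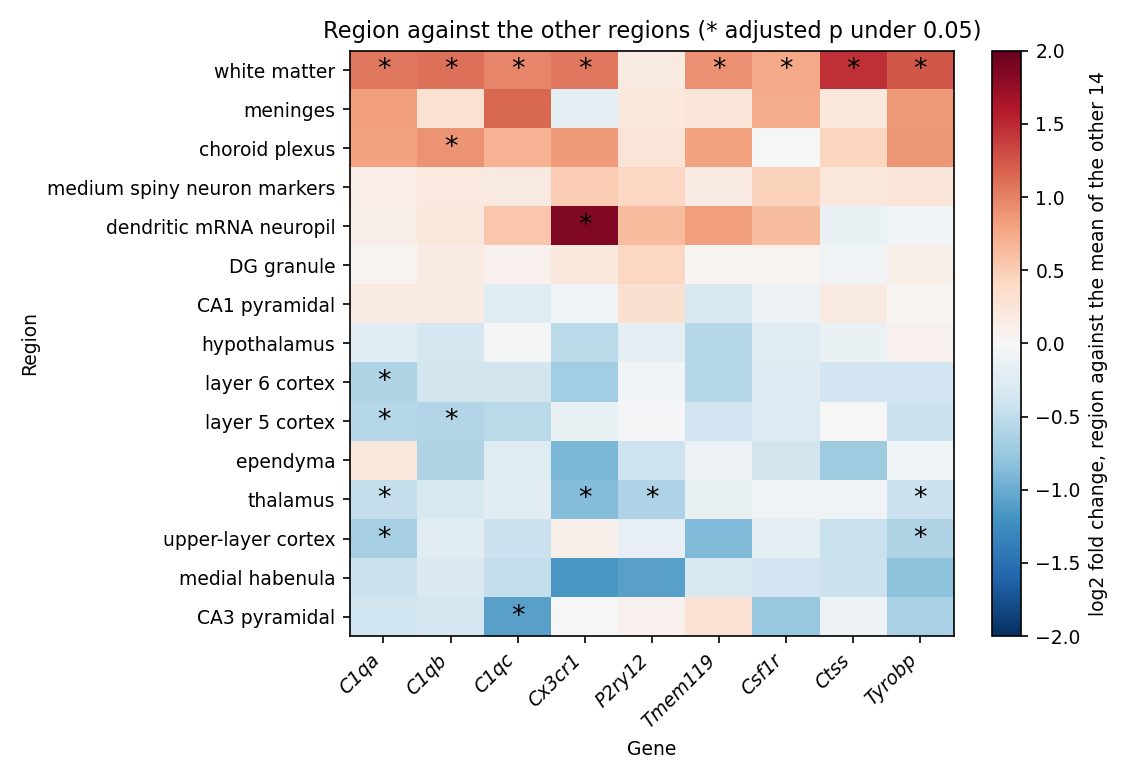
Log2 fold change of each of the 9 genes (columns) in each region (rows, ordered by summed level) against the mean of the other 14 regions, from the fit over all 4 sections. Asterisks mark an adjusted p under 0.05, which 8 genes reach in white matter, where P2ry12 lies at 0.19.

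Over all 135 pairs of a member and a region, 10 were called higher and 10 lower, against 9.36% and 4.98% of all gene and region pairs in the same fit. Outside white matter 2 of 126 pairs were higher, against 8.96% of all pairs there, and 10 were lower, against 4.71%. The other higher pairs were C1qb in choroid plexus (0.90 ± 0.30, SE) and Cx3cr1 in the neuropil region (1.85 ± 0.48). Cx3cr1 had too few UMIs for a fit without trained 2, so whether that section alone carried the call was not tested. The latter pair rested on 2 UMIs in trained 1, 14 in trained 2, 0 in untrained 1 and 1 in untrained 2. In choroid plexus spots C1qb was at 85.2, 120, 44.1 and 141 CPM in the same order. The 8 oligodendrocyte markers, led by Mbp, summed there to 4803, 26485, 10191 and 9504 CPM, more in trained 2 than in its white matter (23746), and the members to 266, 785, 463 and 706 CPM. The part of myelin in the choroid plexus levels was not tested. Thalamus had the most lower pairs, with P2ry12 at -0.62 ± 0.21, C1qa at -0.47 ± 0.15, Tyrobp at -0.43 ± 0.17 and Cx3cr1 at -0.87 ± 0.31. In cortex C1qa was lower in the upper layers (-0.66 ± 0.19), layer 5 (-0.58 ± 0.18) and layer 6 (-0.60 ± 0.18), C1qb in layer 5 (-0.58 ± 0.19) and Tyrobp in the upper layers (-0.60 ± 0.22). The last lower pair was C1qc in CA3 (-1.09 ± 0.37), with 7, 6, 0 and 3 UMIs. Each of these 12 pairs lost its call in at least 1 alternative, and the total of 20 was 15 without trained 1, 12 without trained 2, 18 without untrained 1 and 12 without untrained 2. C1qa in layer 6 turned to 0.20 without trained 2.

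Ordered by the mean of 4 sections, the summed level of the members was 801 ± 120 CPM (SD) in white matter, 636 ± 222 in meninges, 555 ± 236 in choroid plexus, 475 ± 52.4 in the medium spiny neuron region and 469 ± 241 in the neuropil region. The DG granule layer was at 457 ± 160 and CA1 at 446 ± 57.2. Below these came hypothalamus at 389 ± 10.3, layer 6 at 383 ± 77.1, layer 5 at 370 ± 30.0, ependyma at 367 ± 132, thalamus at 362 ± 36.2, upper cortex at 338 ± 27.6, medial habenula at 335 ± 71.0 and CA3 at 331 ± 93.7. Neighbours in this order differed by less than the larger SD of the pair in 13 of 14 cases. White matter was above meninges in 2 of 4 sections (exact permutation p = 0.5). The exception was CA1 above hypothalamus, which held in 4 of 4 sections (exact permutation p = 0.125), as did thalamus above upper cortex, a pair within its spread. Hypothalamus was the most even region, between 377 and 402 CPM.

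**Figure D3:**
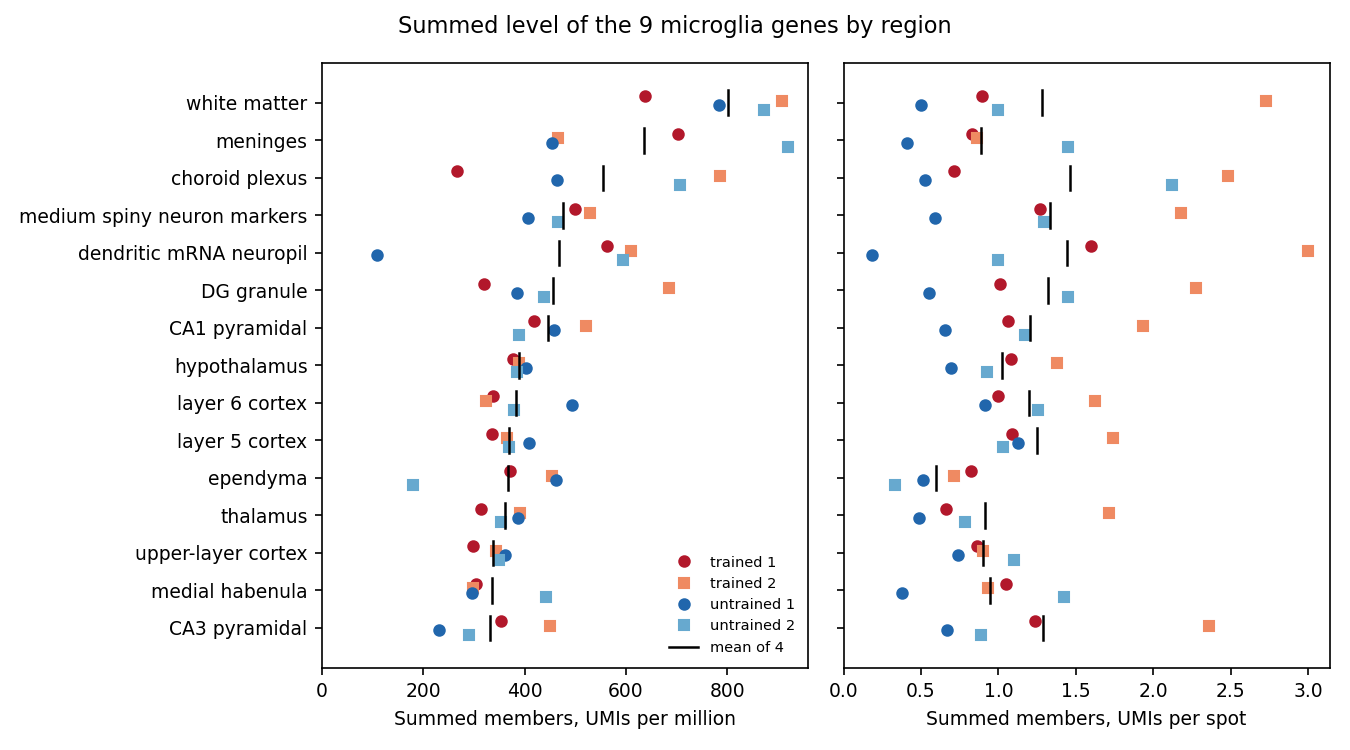
Summed level of the 9 genes in each of 15 regions as CPM (left) and UMIs per spot (right), with a point per section and a bar at the mean of 4. White matter has the highest mean on the left at 801 CPM, and 1.28 UMIs per spot on the right, where trained 2 lies at 2.73 and the other sections at 1.0 or below.

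Shares of spots in white matter depended on depth. After thinning, 28.8% of white matter spots held a member UMI in trained 1, 38.7% in trained 2, 31.3% in untrained 1 and 34.2% in untrained 2, a mean of 33.2% against 18.0% over all spots (31.4% against 17.8% without trained 2). The thinning left out 36 of 182, 20 of 258, 71 of 154 and 65 of 261 white matter spots as too shallow. Before thinning the shares in white matter were 50%, 76.7%, 35.1% and 49.0%, against 49.7%, 60.9%, 39.6% and 52.3% over all spots, so both untrained sections were lower in white matter and trained 1 was level. The means were 52.7% and 50.6%, and 44.7% and 47.2% without trained 2, which turns the direction. The trained and untrained means after thinning were 33.7% and 32.8% in white matter, with overlapping groups (exact permutation p = 1).

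Trained and untrained sections were also compared inside each region. Enough UMIs for a test were found for 73 pairs of a member and a region in 12 regions. None was called (0 of 73 by edgeR and 0 by DESeq2), against 0.0607% of the 75760 gene and region pairs tested, and 31 pairs were above 0 and 42 below. An unadjusted p under 0.05 was found for 1 pair with edgeR and 0 with DESeq2. That pair was C1qc in hypothalamus, at 59.6 and 46.3 CPM in the trained sections and 73.3 and 71.6 in the untrained. Both trained sections were the lower ones, with a log2 fold change of -0.54 ± 0.24 (SE, edgeR adjusted p = 0.649). White matter itself had 7 members tested, of which 2 were above 0, with a median of -0.19 and a range from -0.52 to 0.45. Over all genes 46 pairs were called, and 560 without trained 1, 76 without trained 2, 87 without untrained 1 and 183 without untrained 2, with 0 member pairs in each.

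The task depends on the hippocampus, so the training effect in the 4 hippocampal regions was set against that in the rest of the section in 1 fit. In hippocampal spots the summed level of the members was 367 CPM in trained 1, 581 in trained 2, 368 in untrained 1 and 392 in untrained 2. In the rest of the section it was 379, 449, 429 and 433. Trained 2 alone was high in the hippocampus, and trained 1 lay just below both untrained sections. Trained 2 also had 50 neuropil spots against 10, 13 and 11 in trained 1, untrained 2 and untrained 1. In its hippocampal spots all 8 oligodendrocyte markers, led by Mbp, summed to 4488 CPM against 2484 in trained 1, 2392 in untrained 1 and 2718 in untrained 2. The 10 astrocyte markers, led by Slc1a2, summed to 3590 CPM against 2360, 2445 and 2209 there, with none of either list at 0, and their part in the member levels was not tested. C1qa was at 57.7 and 86.1 CPM in the hippocampus of trained sections and 45.6 and 53.6 in untrained sections. P2ry12 was at 36.6 and 51.6 in trained and 35.1 and 25.4 in untrained sections, from 26, 48, 10 and 18 UMIs. In untrained 1, 3 UMIs correspond to 10.5 CPM, more than the gap between 36.6 and 35.1. Ctss was at 74.6 and 83.9 in trained and 63.1 and 66.3 in untrained sections. For these 3 of the 9 members the hippocampal groups did not overlap, against 34.9% of the 12170 genes tested, while in the rest of the section P2ry12 was between 28.7 and 31.1 in all 4.

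Marker sums of 4 of the 8 other cell lists were also apart between the groups in these hippocampal spots, against 34.9% of single genes tested. Border macrophage markers, led by Pf4, summed to 12.7 (trained 1) and 7.53 CPM (trained 2) against 3.51 (untrained 1) and 2.82 (untrained 2). Cd163, Lyve1 and Cd209f of the 10 were at 0. In these spots 3 UMIs correspond to 4.22, 3.23, 10.5 and 4.23 CPM in trained 1, trained 2, untrained 1 and untrained 2. Both untrained sums lay below that level. CA1 of trained 1 held 7 UMIs of this list, and CA1 of the other sections held 0. Endothelial and mural markers, led by Ly6c1, were at 293 and 411 against 267 and 278, and red blood cell markers, led by Hbb-bs, at 702 and 640 against 456 and 398, with no marker of these lists at 0. Blood leukocyte markers, led by S100a9, went the other way at 0 and 1.08 against 21.0 and 4.23 CPM. Ly6c2, Plac8, Cd3e, Ms4a1 and Nkg7 of the 10 were at 0, and both trained sums lay below the level of 3 UMIs. Neuron and oligodendrocyte precursor markers overlapped, and the part of any of these lists in the member levels was not tested.

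The difference between the training effects was above 0 for all 9 genes in the fit over 4 sections, as it was for 6489 of the 12170 genes tested, and its median was 0.47 (log2) against 0.03 over all genes. It was 0.79 ± 0.25 (SE) for C1qa (edgeR unadjusted p = 0.00477, adjusted p = 0.857), 0.79 ± 0.36 for P2ry12 (unadjusted p = 0.0377, adjusted p = 0.900) and 0.97 ± 0.47 for Tmem119 (adjusted p = 0.904). Called were 0 of the 9 with edgeR, against 0.00822% of the 12170 genes tested, with 2 of the 9 (C1qa and P2ry12) at an unadjusted p under 0.05, and DESeq2 gave 0 and 0. Over all genes 672 had an unadjusted p under 0.05 with edgeR and 81 with DESeq2. Without trained 2 the value of C1qb was -0.50, those of C1qc, Cx3cr1, Tmem119 and Tyrobp were between 0.02 and 0.07, and that of C1qa was 0.64. Over all genes 1 was called, Calb2, a gene outside the members and a marker used to assign spots, named after its value was seen. The count was 115 without trained 1, 1 without trained 2, 4 without untrained 1 and 0 without untrained 2.

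Other genes of microglia and their pathways were read from 6 lists, in which genes named beyond the 3 most counted were picked after their values were seen. Between conditions, 1099 of all 13810 genes tested had an unadjusted p under 0.05 with edgeR and 476 with DESeq2. Of 30 other microglia genes, all were tested between conditions and 0 were called by edgeR (Gpr34 and Golm1 had an unadjusted p under 0.05) or by DESeq2 (0 unadjusted), with a median log2 fold change of -0.11. Among the most counted of them were Selplg, at 24.2, 32.6, 30.3 and 28.7 CPM in trained 1, trained 2, untrained 1 and untrained 2, and Itgb5. Only 7 of the 30 had enough UMIs for the test between regions, which a gene can pass through the region where it is high. Of these 6 were called higher in white matter, against 15.1% of all genes tested, among them Selplg by 0.95 and Itgb5 by 0.94 on the log2 scale.

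The complement list held 23 genes besides C1q, led by Clu, Sez6l2 and Nptx1, of which 18 were tested and 0 called between conditions by edgeR or DESeq2. An unadjusted p under 0.05 was found for 3 of them with edgeR, C3ar1 and Nptx1 included, and for 2 with DESeq2, Nptx1 included. Over all 13810 genes tested the counts were 1099 and 476. Only 9 of the 23 had enough UMIs for the test between regions, which a gene can pass through the region where it is high. Beside the C1q chains, 3 of these 9 were called higher in white matter, against 15.1% of all genes tested. They were Sez6l2 (0.83), C4b and Cd59a, and Nptx1 was called lower (-1.35). Of 12 ligands and adaptors of the members, 11 were tested and 0 called by either tool (Il34 and Tgfb1 unadjusted with edgeR, 0 with DESeq2). Cx3cl1, the ligand of Cx3cr1, was at 381, 393, 443 and 403 CPM and was lower in white matter by -0.82, while Cx3cr1 was higher there. Sirpa was lower too (-0.68), and Cd47 was not called (0.12).

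Genes of microglial activation were not called between conditions either, with 14 of the 21 analysed tested and 0 called by edgeR or DESeq2. Spp1, Cd9, Cd74 and H2-Ab1 had an unadjusted p under 0.05 with edgeR, and Spp1, Cd74 and H2-Ab1 with DESeq2. Over all 13810 genes tested the counts were 1099 and 476. The most counted, Apoe, Ctsb and Ctsd, are made by other cells as well, and Apoe was at 2046, 1899, 2245 and 2093 CPM. Of 10 interferon response genes, with Ifitm3 and Ifit3 among the most counted, 9 were tested and 0 were called, with 0 unadjusted, by both tools. Cathepsins and lysosome genes, the company of Ctss, gave 0 called of 17 tested, with 0 unadjusted, by both tools. In white matter 10 of the 15 with enough UMIs for the test between regions were called higher, against 15.1% of all genes tested. Among them were Cst3, the extracellular inhibitor of cathepsins (0.60), and Lamp1 (1.05), but not Ctsb (0.14).

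Macrophages at the brain's borders share several of the 9 genes, so their markers were read beside them. All 10 border macrophage markers were detected and summed to 63 UMIs in trained 1, 65 in trained 2, 36 in untrained 1 and 62 in untrained 2, or 8.85, 6.29, 10.1 and 9.42 CPM, with Mrc1 the most abundant. Their mean was 86.9 CPM in meninges and 5.10 in white matter, where the members were at 801. Blood leukocyte markers summed to 5, 11, 37 and 26 UMIs over whole sections, led by S100a9, and to 0 UMIs in white matter of all 4 sections. No marker of either list was at 0 over all sections, and their part in the member levels of meninges was not tested. Oligodendrocyte markers, which define white matter here, summed to 20219, 23746, 24204 and 28840 CPM in it.

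Lists for the other cells of the section were read the same way. Between conditions over whole sections 0 genes were called by edgeR or DESeq2 among 10 astrocyte, 8 oligodendrocyte, 8 oligodendrocyte precursor, 10 endothelial and mural, 10 neuron and 4 red blood cell genes tested. At an unadjusted p under 0.05 were 2, 1, 0, 2, 2 and 0 of them with edgeR and 1, 1, 0, 1, 2 and 0 with DESeq2. Over all 13810 genes tested the counts were 1099 and 476. Within regions edgeR called 2 of 144 pairs of a neuron gene and a region, both of Slc17a7, against 0.0607% of all 75760 pairs. DESeq2 called 0 pairs of these lists. Slc17a7 was lower in trained sections in hypothalamus (-1.14) and the medium spiny neuron region (-1.12). In white matter, where 8 of the 9 members were higher, so were all 8 oligodendrocyte markers, which define white matter here. Also higher were 3 of 10 astrocyte genes (Gfap, Aldoc and S100b) and 3 of the 8 vessel genes with enough UMIs (Flt1, Ly6c1 and Vtn). The neuron list had 1 of 10 higher (Gad1), and 15.1% of all genes tested were higher there. No precursor or red blood cell gene was called there (0 of 4 each by edgeR). Lower were 4 of 10 neuron genes (Rbfox3, Syt1, Meg3 and Slc17a7), against 8.80% of all genes tested. The part of any of these lists in the member levels was not tested.

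Across the 60 sums of 15 regions and 4 sections, which share sections and depth, the genes most alike to the summed members were sought among 8801 genes by the correlation of log2 levels with section means removed. They were Phgdh (Pearson r = 0.72), Myl12a (0.69), Cryab (0.69), Cst3 (0.69), Mal (0.68), Gfap (0.68), Tsc22d4 (0.67), Pllp (0.67), Csrp1 (0.67) and Fcer1g (0.64), against a median of -0.01 over all genes compared. The list mixes genes known from astrocytes (Phgdh, Gfap), myelin (Mal, Pllp) and microglia (Fcer1g). Mal is also among the markers that define white matter here, so its value is not independent of how spots were assigned. Of the other microglia genes Fcer1g and Selplg (0.59) were among the most alike and Irf8 (-0.04), Ptprc (-0.02) and Cd68 (-0.02) the least. Among themselves the members were uneven, as C1qc had r = 0.64 with the sum of the other members and Csf1r had r = -0.01. With few UMIs in small regions these values describe sparse sums.

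The 3 C1q genes share their place in the genome as well as their product. In the GENCODE vM21 annotation of mm10 they lie on the minus strand of chromosome 4 in the order C1qb, C1qc, C1qa, within 18675 bases from 136880129 to 136898803, and no other annotated gene overlaps them. The remaining members are spread over chromosomes 3 (P2ry12 and Ctss), 5 (Tmem119), 7 (Tyrobp), 9 (Cx3cr1) and 18 (Csf1r). Cx3cr1 has 3 annotated transcripts, 1 of them long, so that it overlaps 9 genes, 3 of them on its own strand. Ctss overlaps Hmgb1-ps5 on its own strand, and Csf1r overlaps Mir6983 and Hmgxb3, 1 of them on its own strand. P2ry12 lies inside Med12l on the opposite strand, and the 3′ kit keeps the strand.

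Promoter sequences from RefSeq (GRCm38.p6) were at hand for 5 of the 9 members, P2ry12, Ctss, C1qb, C1qc and Cx3cr1. The 250 bases before the start were searched on both strands for GAGGAA, the core letters bound by PU.1, the master transcription factor of macrophages. These letters were found in C1qb, Ctss and C1qc and not in P2ry12 or Cx3cr1, and 23.3% of all 32851 promoters of that length hold them. Shown are C1qb and Ctss, which were higher in white matter and hold the letters, Cx3cr1, which was higher and does not hold them, and P2ry12, which was not called. They come from chr4:136886201-136886450 (minus strand), chr3:95526536-95526785 (plus strand), chr9:120068297-120068546 (minus strand) and chr3:59262986-59263235 (minus strand), each 5′ to 3′ with the letters searched in capitals. A match is a description of the sequence and not a site of binding.
C1qb: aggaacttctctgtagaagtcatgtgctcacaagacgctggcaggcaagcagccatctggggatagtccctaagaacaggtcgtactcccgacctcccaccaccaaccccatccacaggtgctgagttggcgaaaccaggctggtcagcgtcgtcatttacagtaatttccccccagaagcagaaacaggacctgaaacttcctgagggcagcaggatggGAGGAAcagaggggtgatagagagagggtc
Ctss: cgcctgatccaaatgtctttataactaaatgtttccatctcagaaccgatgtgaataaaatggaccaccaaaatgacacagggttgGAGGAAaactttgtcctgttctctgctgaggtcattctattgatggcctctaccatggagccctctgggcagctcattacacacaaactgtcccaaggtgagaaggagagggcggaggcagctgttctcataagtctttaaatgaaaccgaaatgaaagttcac
Cx3cr1: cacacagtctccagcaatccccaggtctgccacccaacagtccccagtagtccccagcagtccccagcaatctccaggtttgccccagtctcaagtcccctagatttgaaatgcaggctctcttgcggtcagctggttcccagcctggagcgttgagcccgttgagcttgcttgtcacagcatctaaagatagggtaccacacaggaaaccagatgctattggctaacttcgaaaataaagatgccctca
P2ry12: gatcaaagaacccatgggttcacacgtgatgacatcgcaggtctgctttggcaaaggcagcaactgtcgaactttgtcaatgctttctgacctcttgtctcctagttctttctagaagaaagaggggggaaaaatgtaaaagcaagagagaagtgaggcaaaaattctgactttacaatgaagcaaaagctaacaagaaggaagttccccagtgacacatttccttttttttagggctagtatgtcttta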

How the data were processed

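The deposited files hold counts of UMIs per gene and spot for 4 Visium sections, which the authors made with Space Ranger. The file headers name version 1.2.2, while the submitters' processing notes list Cell Ranger 8, STAR and the builds mm39 and GRCm39. The study's methods name another Space Ranger version and the mm10 reference, and which of these made the files was not settled here. Gene positions are given in mm10 and enter no count. Single-nucleus data were not analysed here. Each section is 1 mouse and 1 replicate, and 32285 genes were read.

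Spots with at least 100 UMIs were given to the leading of 15 marker lists, with scores averaged over neighbouring spots (leading score at least 0.5, at least 10 spots per section). UMIs were summed per section and per region. Sums were fitted with edgeR 4.0.16 (filterByExpr, TMM, quasi-likelihood F test) in R 4.3.3, with Benjamini-Hochberg adjustment over all genes tested and a threshold of 0.05. Regions were compared with section as a block. Single values were tested by two-sided exact permutation over sections. Shares of positive spots were also computed after thinning to 459 UMIs. Other steps used Python 3.11.15 with numpy 2.4.6, scipy 1.17.1 and pandas 2.3.3. The calls were tested on simulated data.

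Named genes are the 9 members, the 3 genes of each pathway list with the most UMIs, any listed gene called between conditions, the 3 other microglia genes most and the 3 least alike to the members, the 10 most alike genes with at least 400 UMIs, and the 5 genes with the smallest p in each direction among those called over whole sections. Other names were chosen after their values were seen, and some genes the rule names are not reported here. The members and lists were chosen with earlier results of these data known. Depth was 7119995 (trained 1), 10330015 (trained 2), 3560294 (untrained 1) and 6581748 UMIs (untrained 2), at which 3 UMIs correspond to 0.421, 0.290, 0.843 and 0.456 CPM. The alternatives were DESeq2 1.42.0, no filter on low counts, total UMIs without TMM, sums thinned to equal totals, abundant transcripts left out, border regions left out, region markers left out, no neighbour averaging, no section block, a replicate block, at least 2 UMIs per positive spot and each section left out. Rank-sum tests over spots were not used, as spots of a section are not replicates.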

Additional observations from a re-analysis of the deposited data

Results flagged for a closer look

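Calb2, a calcium-binding protein gene that is not a member but is in the marker list of the medial habenula, stood out because its training effect differed between the hippocampal regions and the rest of the section. The difference was -1.78 ± 0.28 on the log2 scale (SE, edgeR unadjusted p = 3.05e-06, adjusted p = 0.0371 over 12170 genes). In hippocampal spots it was at 38.0 and 45.2 CPM in trained 1 and 2 and at 73.7 and 123 in untrained 1 and 2, from 27, 42, 21 and 87 UMIs. In the rest of the section it was at 127, 179, 130 and 94.8. Both trained sections were below both untrained ones in the hippocampus, while the groups overlapped elsewhere. Over 6 alternatives the difference ran from -2.14 to -0.95 with adjusted p from 1.99e-09 to 0.900, and 4 of the 6 called it. It was not called by DESeq2 (-1.69, adjusted p = 0.873) or without untrained 2 (-0.95, adjusted p = 0.900), the section with 87 of its hippocampal UMIs. As a marker, Calb2 helped to decide which spots were named medial habenula and so were not counted as hippocampal. The tested split was therefore not independent of its own counts. Medial habenula spots numbered 58, 75, 32 and 45 in trained 1, trained 2, untrained 1 and untrained 2. The gene was singled out after its values were seen, and the part of habenula tissue in it was not tested. Groups of 2 sections were too small to look for a single section far from the others.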

How the results depend on the processing

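The members were called between conditions in 0 cases by edgeR in every alternative tried for whole sections, within regions and for training by region. At an unadjusted p under 0.05 edgeR gave 1, 1 and 2 in these comparisons, and DESeq2 0 in each. The 8 calls of members in white matter gave 76 alternative values, of which 75 kept direction and threshold and 1 was weaker, Tmem119 without untrained 2. Over all 20 regional calls, 139 of 186 values kept both, 46 were weaker and 1 reversed.

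Counts over all genes moved more. For whole sections the 2 genes became 20 with DESeq2, 211 with no filter, 4 without TMM and from 2 to 848 when 1 section was left out. Within regions the 46 became 9 with DESeq2, 178 with no filter, 14 without neighbour averaging, where only 8 regions could be used, and from 76 to 560 with 1 section left out. Training by region went from 1 to 0 with DESeq2 and from 0 to 115 with 1 section left out. The regional count of 20 was 7 without neighbour averaging and 12 to 18 with 1 section left out. The cause was not tested.

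With replicate numbers as a block (paired by number), the counts were 47 for whole sections and 257 within regions. The numbers do not pair the sections, since the correlation of same-number differences was 0.0182 over 13810 genes.

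Without TMM factors 4 members changed sign over whole sections, C1qb to 0.0091, P2ry12 to 0.033, Csf1r to 0.023 and Ctss to 0.059, as the median of all genes moved to 0.089. Within regions that median reached 0.21 without TMM, and between regions it lay from -0.19 to 0.15. Thinned sums gave C1qb 0.018. Leaving out 1 section in turn gave log2 values from -0.22 to 0.041 for C1qb, -0.12 to 0.015 for P2ry12, -0.23 to 0.10 for Csf1r, -0.063 to 0.0065 for Ctss and -0.082 to 0.34 for Tyrobp. For P2ry12 the sign turned without trained 2 (0.0049) and without untrained 1, for Csf1r without untrained 1, for C1qb and Ctss without trained 1, and for Tyrobp without trained 2 or untrained 1. Training by region of C1qb ran from -0.50 (without trained 2) to 0.50, and C1qa in layer 6 from -0.82 to 0.20 (without trained 2). A lone section left in a group is assumed to vary like the other group. The cause was not tested.

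The summed level of the members, 0.983 times as high in trained sections, was 0.931 when the total left out mitochondrial and other very abundant transcripts, and trained 2 then lay just below untrained 2. The share of positive spots, 9.34 points higher in trained sections, was -1.18 points after thinning to equal totals. The white matter ratio of 1.97 was 1.07 as UMIs per spot, an alternative chosen after seeing the data. Depth limits the members most in untrained 1, where 77 member UMIs lay in white matter. With 2 sections a group only large differences can pass, and no equality is shown.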

Other observations

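Only 9 of the 21 activation genes had enough UMIs for the test between regions, which a gene can pass through the region where it is high. Of these 9, 5 were called higher in white matter by edgeR, against 15.1% of all genes tested. Spp1 had the highest value of them, a log2 fold change of 3.86 against the other regions, and was picked out after its values were seen. Barcodes stand for array positions, so 1330 of 4153 were shared by all 4 sections.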
